A study of Mus musculus with 4 samples.

Results

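The aldehyde dehydrogenases and aldo-keto reductases, enzymes that clear reactive carbonyl compounds, were described in the prefrontal cortex of mice on 2 diets and of 2 genotypes of Glo1. Members were all genes whose array name starts with Aldh or Akr followed by a digit and that had at least 1 probe well above background on at least 1 array. This rule found 36 genes, 21 named Aldh and 15 named Akr, among 22600 genes that met the same signal criterion. Akr1b7 and Akr1c21 carried such names but were not well above background on any array. Of the 36 members, 33 were well above background on all 4 arrays, and these were compared among the 20655 genes measured as fully. Akr1c19, Akr1c20 and Akr1d1 reached that signal on part of the arrays.

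The mice were of strain B6J and 3 months old, and their diet began on postnatal day 21 and lasted about 70 days. The 4 groups were wild-type mice on starch, which served as the control, wild-type mice on sucrose, Glo1 heterozygotes on starch and Glo1 heterozygotes on sucrose. Each group was represented by 1 RNA pool of 3 mice on 1 one-colour array, with 200 ng of RNA labelled, so no difference below has a replicate error and no test was made. How the Glo1 allele was made is not given in the sources used here. The comparisons share arrays and are not independent of each other. Position on the slide and group cannot be told apart. In tissue RNA, fewer cells of a type and less RNA per cell cannot be told apart either.

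A level is given as the signal of a probe divided by the 75th percentile of its array, and a change as the log2 difference of levels between 2 arrays. Levels of different probes are not comparable with each other. Between 77.6% and 80.2% of probes were well above background on an array, and no spot was saturated. As a measure of precision within an array, 299 probes were printed 10 times. The median SD of their log2 signal was 0.0426, which puts the SD of a difference of 2 single spots at 0.06. These were bright probes, and the value holds no spread between mice. The heterozygous arrays had lower Glo1 signal, with levels of 4.04 on wild-type starch, 5.53 on wild-type sucrose, 2.74 on heterozygous starch and 3.04 on heterozygous sucrose. All 10 listed markers of cortical excitatory neurons, such as Slc17a7, were well above background on the 4 arrays. The arrays also differed in markers of neighbouring tissue. Summed levels of 10 measured choroid plexus markers were 16.9, 18.3, 16.4 and 105 in the same order of arrays, those of 10 striatal markers 35.0, 57.3, 53.3 and 30.0, and those of 7 blood markers 277, 135, 235 and 152. Changes in 10 olfactory bulb markers had a median of -2.13 for sucrose against starch in wild-type mice and of -0.77 in heterozygotes. Bright probes weigh most in a summed level, such as Enpp2 at 15.7 of the choroid plexus sum on wild-type starch.

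Aldehyde dehydrogenases oxidise aldehydes to carboxylic acids with NAD+ or NADP+, and aldo-keto reductases reduce aldehydes and ketones to alcohols, mostly with NADPH. Both families take up substrates that overlap with those of glyoxalase 1, the product of Glo1, which removes methylglyoxal, a by-product of glycolysis. In the brain they also handle the aldehydes of monoamine breakdown and lipid peroxidation, the last step of GABA degradation, retinoic acid synthesis and neurosteroid metabolism.

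Most members spread over the 4 arrays about as much as other genes did. The spread of a gene over the arrays, its highest minus its lowest log2 level, had a median of 0.24 over the 33 members and of 0.27 over all genes. It stayed within 1.2-fold for 18 of 33 members (54.5%) and for 49.4% of all genes. Among genes above the median of mean signal, the median spread was 0.12 for 19 members and 0.20 for all genes, while among those below it was 0.42 for 14 members and 0.38 for all genes. A spread past 2-fold occurred in 2 members, Akr1b8 and Aldh1b1, or 6.06%, against 4.16% of all genes. The highest signal lay on the wild-type starch array for 10 members (30.3%, beside 31.4% of all genes) and on wild-type sucrose for 6 (18.2%, beside 26.6%). It lay on heterozygous starch for 7 (21.2%, beside 20.2%) and on heterozygous sucrose for 10 (30.3%, beside 21.7%).

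**Figure D1:**
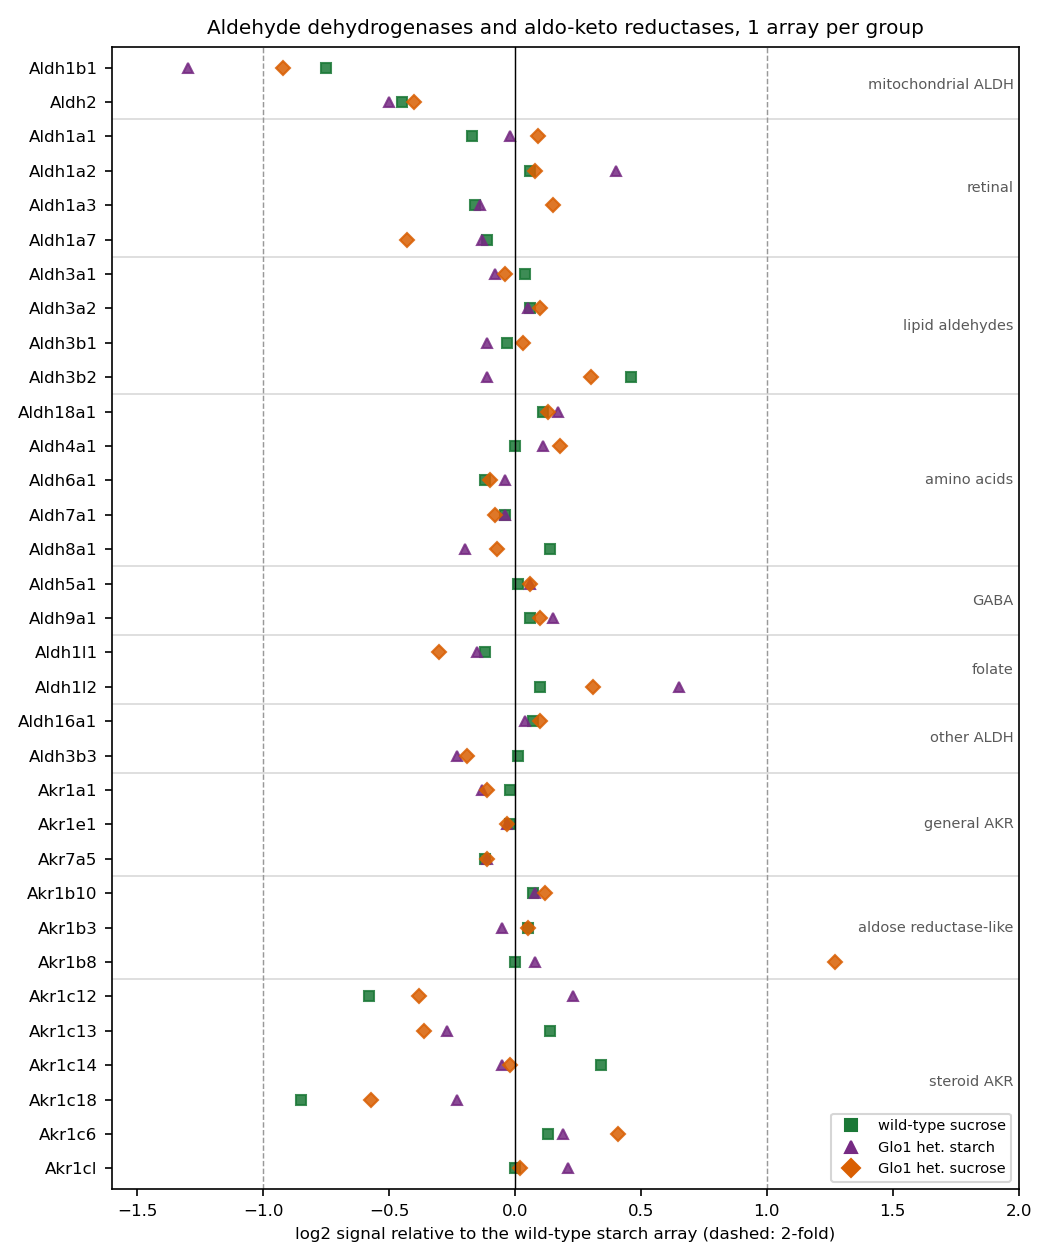
Log2 signal of each of the 33 members on 3 arrays (squares, triangles and diamonds) relative to the wild-type starch array, x axis, with genes grouped by substrate on the y axis and dashed lines at 2-fold. Most symbols lie near 0; Akr1b8 stands at 1.27 on the heterozygous sucrose array, and Aldh1b1 lies at -1.30 on the heterozygous starch array.

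Sucrose against starch in wild-type mice moved none of the 33 members past 2-fold, where 1.48% of all genes moved as far. The members' changes had a median of 0.0, as did those of all genes. At 1.5-fold, Akr1c18 and Aldh1b1 were lower on sucrose, which is 6.06% of members beside 5.93% of all genes. The same diet comparison in heterozygous mice gave 1 member past 2-fold, Akr1b8, or 3.03% beside 1.77% of all genes. At 1.5-fold Akr1c12, lower on sucrose, joined it, or 6.06% of members beside 5.57% of all genes. The median change of the members was 0.04 there, against 0.0 for all genes.

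Heterozygous against wild-type mice on starch differed past 2-fold in 1 member, Aldh1b1, which was lower (3.03% of members, 0.813% of all genes). At 1.5-fold Aldh1l2, which was higher, was added (6.06% of members, 3.97% of all genes). On sucrose, Akr1b8 was the 1 member past 2-fold (1.71% of all genes) and also the 1 member past 1.5-fold (4.58% of all genes). Where both factors differ, in heterozygous mice on sucrose against wild-type mice on starch, Akr1b8 was again higher past 2-fold (2.0% of all genes). In that comparison Aldh1b1 was lower past 1.5-fold (7.32% of all genes for both directions). Median changes of the members in these 3 comparisons were -0.04, 0.02 and 0.02, and that of all genes was -0.02 in each. The diet change in heterozygotes exceeded that in wild-type mice by at least 1 on the log2 scale for Akr1b8 and Aldh1b1, or 6.06% of members, beside 2.88% of all genes with a difference of that size in either direction. After normexp background correction the diet changes of Aldh1b1 were -0.67 and 0.30, which differ by less than 1. With 33 members these shares rest on 0 to 2 genes each.

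**Figure D2:**
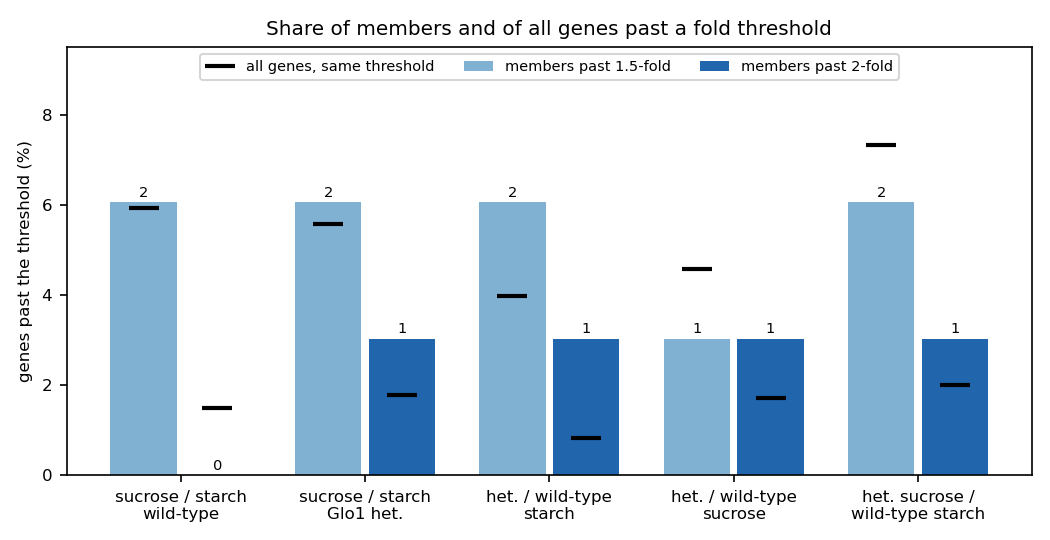
Percentage of the 33 members (bars, with the number of genes above) and of all 20655 genes (black marks) past 1.5-fold and 2-fold in either direction, for the 5 comparisons on the x axis. At 1.5-fold the members range from 3.03% to 6.06% and all genes from 3.97% to 7.32%; at 2-fold no comparison has more than 1 member.

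Akr1b8 and its chromosome 6 neighbours Akr1b3 and Akr1b10 form the aldose reductase-like group. Akr1b3 is mouse aldose reductase, the first enzyme of the polyol pathway from glucose to sorbitol, and Akr1b8 and Akr1b10 are close relatives that reduce other aldehydes. Of these 3 genes, Akr1b8 was the 1 whose signal differed past 2-fold between arrays, so the stretches before the start sites of Akr1b8 and Akr1b10 are shown. They are the 250 bases upstream of each start in RefSeq, build GRCm38.p6, plus strand, at chr6:34353896-34354145 for Akr1b8 and chr6:34383997-34384246 for Akr1b10. Capitals mark the GC box, GGGCGG or its reverse complement CCGCCC.
Akr1b8: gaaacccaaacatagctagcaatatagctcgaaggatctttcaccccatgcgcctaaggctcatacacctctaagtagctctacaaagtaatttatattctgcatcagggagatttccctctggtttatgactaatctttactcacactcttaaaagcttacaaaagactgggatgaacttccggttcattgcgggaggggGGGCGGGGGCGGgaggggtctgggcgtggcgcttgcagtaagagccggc
Akr1b10: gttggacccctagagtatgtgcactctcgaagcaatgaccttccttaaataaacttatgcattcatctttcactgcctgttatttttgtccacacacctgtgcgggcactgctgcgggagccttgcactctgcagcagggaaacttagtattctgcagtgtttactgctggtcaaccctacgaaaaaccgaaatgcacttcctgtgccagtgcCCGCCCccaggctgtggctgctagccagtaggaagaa
Akr1b8 holds GC boxes beginning 49 and 43 bases before the start, and Akr1b10 holds 1 beginning 37 bases before it. Such a box is in 32.7% of 32851 mouse promoters of this length and in 10 of the 30 promoters found for 28 members. Neither window holds TGACNNNGC, the core of the antioxidant response element, or TGANTCA, an AP-1 site, on either strand. Those were in 10.2% and 6.75% of all promoters. Among the members' promoters, TGACNNNGC was found for Akr1cl, Aldh9a1 and Aldh1a2, and TGANTCA for Aldh1a1.

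The level of Akr1b8 was 0.629 on wild-type starch, 0.628 on wild-type sucrose, 0.662 on heterozygous starch and 1.51 on heterozygous sucrose. The first 3 arrays lay close together, and the heterozygous sucrose array alone was high. Its change was 0.00 for sucrose in wild-type mice and 1.19 for sucrose in heterozygotes, a 2.28-fold difference. Heterozygotes differed from wild-type by 0.07 on starch and by 1.27 on sucrose, or 2.41-fold. Among the 2065 genes in the same decile of mean signal, 10 changed as much between the diets in heterozygotes and 11 as much between the genotypes on sucrose, Akr1b8 included. The gene has 1 probe, at chr6:34318338-34318397 on the plus strand of build mm9, so no other probe of it could be compared. The probe shares no more than 8 bases in a row with a probe of another member.

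Choroid plexus markers were high on the same array as Akr1b8. All 10 measured markers were more than 2-fold higher on sucrose in heterozygotes, with a median change of 3.90, and Ttr, which encodes the transthyretin that this tissue secretes, had levels of 0.259, 1.42, 0.101 and 58.7. Of 7 ependymal markers, 5 were also more than 2-fold higher there, and their summed levels were 2.96, 2.69, 3.02 and 5.36. Between the diets in wild-type mice the 10 markers had a median change of 0.37, with 3 more than 2-fold higher and 1 more than 2-fold lower. The part of choroid plexus or ependymal RNA in the Akr1b8 signal was not tested.

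Akr1b3 had levels of 7.40, 7.66, 7.18 and 7.70 on wild-type starch, wild-type sucrose, heterozygous starch and heterozygous sucrose. They spanned 0.10 on the log2 scale, with no array apart. A further Akr1b3 probe gave changes between -0.17 and 0.13 over the 5 comparisons. Akr1b10 had levels of 3.15, 3.33, 3.33 and 3.43, a span of 0.12. Its other probes were dimmer and placed the wild-type starch array lowest, with changes of 0.43 and 0.63 for sucrose in wild-type mice beside 0.08 at the brightest probe. Sord, the sorbitol dehydrogenase that follows aldose reductase in the polyol pathway, had changes of 0.23 and 0.20 with sucrose in the 2 genotypes.

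Akr1d1, the steroid 5-beta-reductase best known from liver, was dim and was well above background on the sucrose arrays only. Its probe had levels of 0.00511, 0.00807, 0.00621 and 0.0365 in the same order, highest on heterozygous sucrose. The gene met the signal criterion through the sucrose arrays alone, so its higher signal there is partly set by that criterion. The signal on heterozygous sucrose was at least 5.46-fold higher than on heterozygous starch and at least 5.59-fold higher than on wild-type starch. With no filter on dim probes, 4.2% of all genes passed 2-fold between the diets in heterozygotes. Between the genotypes on sucrose, where both arrays measured it, the change was 2.18. A further Akr1d1 probe was not well above background on any array. The choroid plexus and ependymal values given for Akr1b8 accompany this difference as well, and their part in it was not tested.

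**Figure D3:**
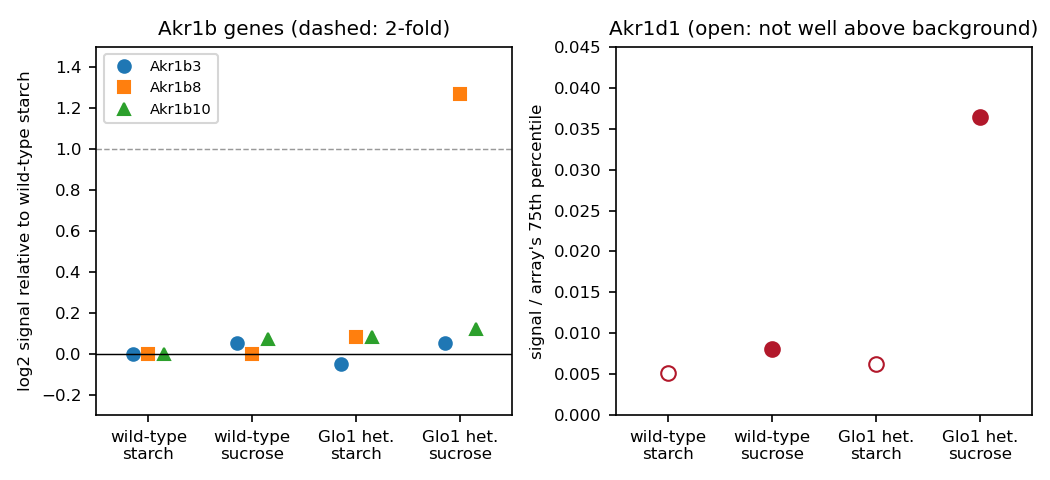
Left, log2 signal of Akr1b3, Akr1b8 and Akr1b10 on the 4 arrays (x axis) relative to wild-type starch; right, the level of the Akr1d1 probe as a multiple of the array's 75th percentile, open where it was not well above background. Akr1b8 at 1.27 and Akr1d1 at 0.0365 are high on the heterozygous sucrose array, while Akr1b3 and Akr1b10 span at most 0.12 over the arrays. Akr1d1 met the signal criterion through the sucrose arrays alone.

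The mitochondrial aldehyde dehydrogenases Aldh2 and Aldh1b1, which oxidise acetaldehyde and lipid-derived aldehydes, were highest on the wild-type starch array. Aldh1b1 had levels of 0.300 on wild-type starch, 0.177 on wild-type sucrose, 0.121 on heterozygous starch and 0.159 on heterozygous sucrose. The wild-type starch array stood above the other 3. The genotype change was -1.30 on starch and -0.16 on sucrose, and the diet change was -0.76 in wild-type mice and 0.38 in heterozygotes. Of 2065 genes in the same decile of signal, 4 changed as much between the genotypes on starch, and 42 differed as much between the diet changes of the 2 genotypes. Aldh1b1 is read by 1 probe, at chr4:45816960-45817019 on the plus strand of build mm9. The 250 bases before its start in RefSeq, at chr4:45798772-45799021 on the plus strand of GRCm38.p6, are shown because this gene had the lowest genotype change of all members, with the GC box in capitals.
Aldh1b1: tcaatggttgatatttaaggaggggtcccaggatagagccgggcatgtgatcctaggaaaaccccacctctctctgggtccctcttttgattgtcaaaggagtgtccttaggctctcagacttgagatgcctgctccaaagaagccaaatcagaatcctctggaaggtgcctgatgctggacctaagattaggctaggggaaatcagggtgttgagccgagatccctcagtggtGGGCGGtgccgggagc
It holds 1 GC box, beginning 16 bases before the start, and neither of the other motifs. The median GC content of the members' promoters was 50.2%, beside 52.4% for all promoters, and that of Aldh1b1 was 53.2%.

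Aldh2 had 4 probes, and they did not give 1 value. The brightest had levels of 4.70, 3.45, 3.31 and 3.56 in the same order of arrays, so that wild-type starch was high and the other 3 arrays were close together. Its change was -0.45 between the diets in wild-type mice, -0.51 between the genotypes on starch, 0.10 between the diets in heterozygotes and 0.05 between the genotypes on sucrose. In its decile of 2066 genes, 62 and 33 genes changed as much as in the first and second of these. The probe A_55_P2739341 gave -0.37, -0.36, 0.05 and 0.06. The probe A_52_P116134 gave larger differences, with levels of 1.16, 0.520, 0.476 and 0.589. These correspond to -1.16 between the diets in wild-type mice and -1.29 between the genotypes on starch, past 2-fold in both. The fourth probe, A_52_P13109, gave levels of 0.278, 0.273, 0.261 and 0.305, changes of -0.03 and -0.09, and no high wild-type starch array.

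A_52_P116134 is shown because it is the Aldh2 probe with the largest differences and the one whose position spans a gap. It is a run of 60 bases that the array's annotation places at chr5:122022137-122022690 on the minus strand of build mm9, a span of 554 bases, so it joins separate stretches of the genome.
A_52_P116134: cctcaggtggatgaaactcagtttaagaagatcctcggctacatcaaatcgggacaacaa
The other 3 Aldh2 probes lie within 60 bases each, at chr5:122016157-122016216, chr5:122017680-122017739 and chr5:122017909-122017968. No probe of Aldh2 shares more than 10 bases in a row with a probe of another member. Whether the probes read different transcripts was not tested.

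**Figure D4:**
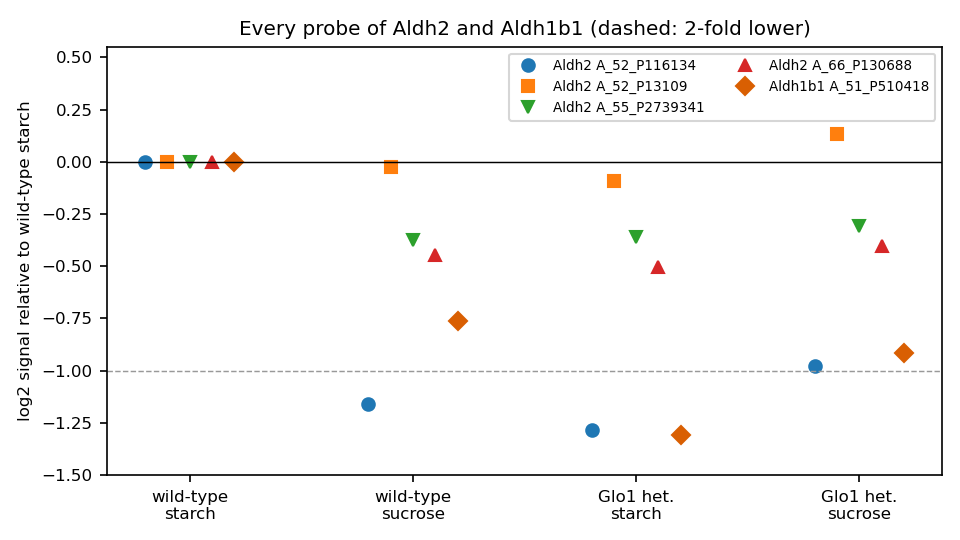
Log2 signal of the 4 Aldh2 probes and the Aldh1b1 probe on each array (x axis) relative to wild-type starch, with a dashed line at 2-fold lower. Aldh1b1 and 3 Aldh2 probes lie below 0 on the other 3 arrays, from -0.31 to -1.30, while A_52_P13109 stays between -0.09 and 0.13.

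Summed astrocyte markers, a cell type in which Aldh2 is abundant, were 206, 187, 194 and 176 in the same order of arrays, and their changes had medians of -0.16 between the diets in wild-type mice and -0.02 between the genotypes on starch. Summed microglial markers were 81.2, 78.9, 76.9 and 76.4, with a median change of -0.11 in both of those comparisons and 9 of 10 markers below 0 for genotype on starch, where 46.0% of all genes were above 0. Itgam gave 36.4 of the first sum. C1qa, C1qb and Tmem119 changed by -0.78, -0.49 and -0.47 between the diets in wild-type mice. Between the genotypes on starch they changed by -0.66, -0.51 and -0.40. Of the 10 markers, 4 were above 0 in the first of these comparisons and 1 in the second. Summed blood markers were 277, 135, 235 and 152. Between the diets in wild-type mice and between the genotypes on starch, olfactory bulb markers had medians of -2.13 and -0.05. Striatal markers had medians of 0.85 and 0.69 there, and melanocyte markers -0.07 and 1.08. The part of these cells and tissues in the signals of Aldh2 and Aldh1b1 was not tested.

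At their brightest probes, the enzymes that make retinoic acid from retinal differed by less than 1.5-fold in each comparison. Of all genes, 3.97% to 7.32% differed by 1.5-fold or more. Aldh1a1, found in dopaminergic and other cells, had levels of 4.08, 3.64, 4.02 and 4.35. Aldh1a2, known in the brain from the meninges, had levels of 0.890, 0.929, 1.17 and 0.937, and the heterozygous starch array was the high one, with a change of 0.40 against wild-type on starch. Of 14 meningeal fibroblast markers, 11 were also above 0 in that comparison, as were 46.0% of all genes, with a median of 0.17, and their summed levels were 108, 104, 108 and 101. Of 7 melanocyte markers, 4 were more than 2-fold higher there, with a median of 1.08 and summed levels of 1.81, 1.40, 3.11 and 2.36. The part of either list in the Aldh1a2 value was not tested. Aldh1a3 had levels of 0.111, 0.0997, 0.101 and 0.123 at its brightest probe. A dim Aldh1a3 probe, A_52_P113518, was well above background on both sucrose arrays. Its signal on heterozygous sucrose was at least 1.76-fold higher than on heterozygous starch and at least 1.80-fold higher than on wild-type starch, and the genotype change on sucrose was 0.68. On that array 10 of 10 choroid plexus and 5 of 7 ependymal markers were also more than 2-fold higher than on heterozygous starch, and their part in this difference was not tested. Aldh1a7 was lowest on heterozygous sucrose, at 0.182, and highest on wild-type starch, at 0.244.

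Of 14 measured genes of retinoid transport, metabolism and response, none differed past 2-fold in any of the 5 comparisons, beside 0.813% to 2.0% of all genes. Medians of the 14 genes lay between -0.01 and 0.06. Rarb, a retinoic acid receptor that is also a striatal marker, had a diet change of 0.62 in wild-type mice and -0.63 in heterozygotes. These differ by -1.25, past 1 in size, as did those of 2.88% of all genes. Rxrg, on the same retinoid list, had diet changes of 0.45 and -0.51, which differ by -0.96. The striatal list, which holds Rarb itself, had median changes of 0.85 and -0.86, and its part in the Rarb and Rxrg values was not tested.

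At their brightest probes, none of the 4 enzymes of fatty and lipid peroxidation aldehydes passed 1.5-fold in any comparison, beside 3.97% to 7.32% of all genes. Aldh3a2, the fatty aldehyde dehydrogenase, had levels of 2.62, 2.72, 2.71 and 2.80 at its brightest probe, a span of 0.09. Its dimmest probes varied more, down to -0.69 for sucrose in wild-type mice. Aldh3a1 and Aldh3b1 spanned 0.12 and 0.14. Aldh3b2 had levels of 0.353, 0.486, 0.328 and 0.435, so both sucrose arrays lay above both starch arrays. Its diet changes were 0.46 in wild-type mice and 0.41 in heterozygotes, under 1.5-fold in both.

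None of the 7 enzymes of amino acid and GABA metabolism passed 1.5-fold in any comparison, beside 3.97% to 7.32% of all genes. Aldh5a1, succinic semialdehyde dehydrogenase, which completes GABA degradation, had levels of 5.88, 5.88, 6.11 and 6.10. Both heterozygous arrays lay above both wild-type arrays, by changes of 0.06 on starch and 0.05 on sucrose, which is no more than the 0.06 that repeated spots on an array gave. Aldh9a1, which forms GABA from its aldehyde, had levels of 1.56, 1.63, 1.73 and 1.67. Aldh7a1, of lysine breakdown, had levels of 10.5, 10.2, 10.2 and 9.94, and both of its probes stayed between -0.09 and 0.05 in all comparisons. The spans of Aldh4a1 and Aldh18a1, of proline metabolism, were 0.18 and 0.17, and that of Aldh6a1, of valine breakdown, was 0.12. Aldh8a1, of tryptophan breakdown, was dimmer and spanned 0.34. None of the 8 GABA and proline partners, which include Gad1, Gad2 and Abat, differed past 2-fold in the 5 comparisons, and their median was lowest, at -0.21, for heterozygous sucrose against wild-type starch. Of all genes, 0.813% to 2.0% passed 2-fold, depending on the comparison.

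Aldh1l1, a 10-formyltetrahydrofolate dehydrogenase used as a marker of astrocytes, was highest on wild-type starch and lowest on heterozygous sucrose at its brightest probe. Its levels were 9.31, 8.55, 8.39 and 7.56, a change of -0.30 from one to the other. The summed astrocyte markers had the same highest and lowest arrays, at 206 and 176, and a median change of -0.10 between them. Of 10 astrocyte markers 8 were below 0 there, while Gfap and Sox9 were at 0.48 and 0.41. A dimmer Aldh1l1 probe gave -0.62 and -0.38 for sucrose in the 2 genotypes, where the brightest gave -0.12 and -0.15. That dimmer probe was lowest on wild-type sucrose, and its genotype change on sucrose was 0.10 beside -0.18 at the brightest. Aldh1l2, its mitochondrial relative, had levels of 0.0861, 0.0921, 0.135 and 0.107. The heterozygous starch array was high at this probe, with a genotype change of 0.65, or 1.57-fold. The other probes of Aldh1l2 gave 0.05 and 0.28 for the same comparison, so the 1.5-fold difference held for 1 of its 3 probes. Melanocyte and striatal markers had medians of 1.08 and 0.69 in that comparison, and their part in the Aldh1l2 value was not tested. Among 9 measured folate partners, Mthfd2, a mitochondrial enzyme of the same pathway, had diet changes of -0.64 in both genotypes, from levels of 0.277 and 0.297 on starch to 0.177 and 0.190 on sucrose. Blood markers had median diet changes of -1.35 and -0.75 in wild-type mice and heterozygotes, and olfactory bulb markers -2.13 and -0.77, and their part in the Mthfd2 values was not tested. Shmt1, another folate partner and a dim one, had levels of 0.0409, 0.0296, 0.0259 and 0.0298. Its genotype change was -0.66 on starch and 0.01 on sucrose.

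Of the general aldo-keto reductases, Akr1a1, aldehyde reductase, had levels of 49.4, 48.9, 45.4 and 45.9. Both heterozygous arrays lay below both wild-type arrays at this scaling, by changes of -0.12 on starch and -0.09 on sucrose, but these were -0.01 on both diets after quantile normalization and -0.02 and -0.01 after cyclic loess. Heterozygous sucrose against wild-type starch gave -0.11 here, -0.15 after median scaling and -0.09 after normexp, but 0.07 after quantile and 0.05 after cyclic loess normalization. Akr1e1, which reduces 1,5-anhydrofructose, had levels of 1.72, 1.70, 1.69 and 1.69. Its span of 0.03 was the smallest of all 33 members at the brightest probe. Another Akr1e1 probe had levels of 0.229, 0.226, 0.202 and 0.198, with genotype changes of -0.18 and -0.19. Akr7a5, which reduces succinic semialdehyde, had levels of 0.583, 0.537, 0.538 and 0.540.

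The Akr1c genes on chromosome 13 encode hydroxysteroid dehydrogenases that act on progesterone, androgens and their metabolites. Akr1c18, which inactivates progesterone, had levels of 0.411, 0.229, 0.352 and 0.278. Both sucrose arrays were below both starch arrays, with changes of -0.85 in wild-type mice and -0.34 in heterozygotes. Blood markers had the same order of arrays, with summed levels of 277, 135, 235 and 152, and 9 of 10 olfactory bulb markers were more than 2-fold lower on sucrose in wild-type mice. Their part in the Akr1c18 values was not tested.

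Akr1c12 also had both sucrose arrays below both starch arrays, with levels of 0.0237, 0.0158, 0.0278 and 0.0182 and changes of -0.58 and -0.61. It lay in the dimmest decile of genes, where 388 and 294 of 2066 genes changed as much, and after another background correction its change in heterozygotes was -0.22. In the same comparisons blood markers had medians of -1.35 and -0.75 and olfactory bulb markers -2.13 and -0.77. Their part in the Akr1c12 values was not tested. Akr1c13 was lower in heterozygotes on both diets, by changes of -0.27 and -0.50, and Akr1c14 and Akr1c6 stayed under 1.5-fold. Akr1cl, an Akr1c-like gene on chromosome 1, spanned 0.21 at its brightest probe, while its dimmer probes went opposite ways for sucrose in wild-type mice and heterozygotes, with -0.71 and -0.68 at one and 0.10 and 0.19 at the other. Akr1c19 was well above background on both sucrose arrays, at levels of 0.00695 and 0.00769, and Akr1c20 on wild-type starch only, at 0.00717. These lie just inside the signal criterion. The excluded Akr1b7 and Akr1c21 had levels of at most 0.00477 and 0.00136.

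**Figure D5:**
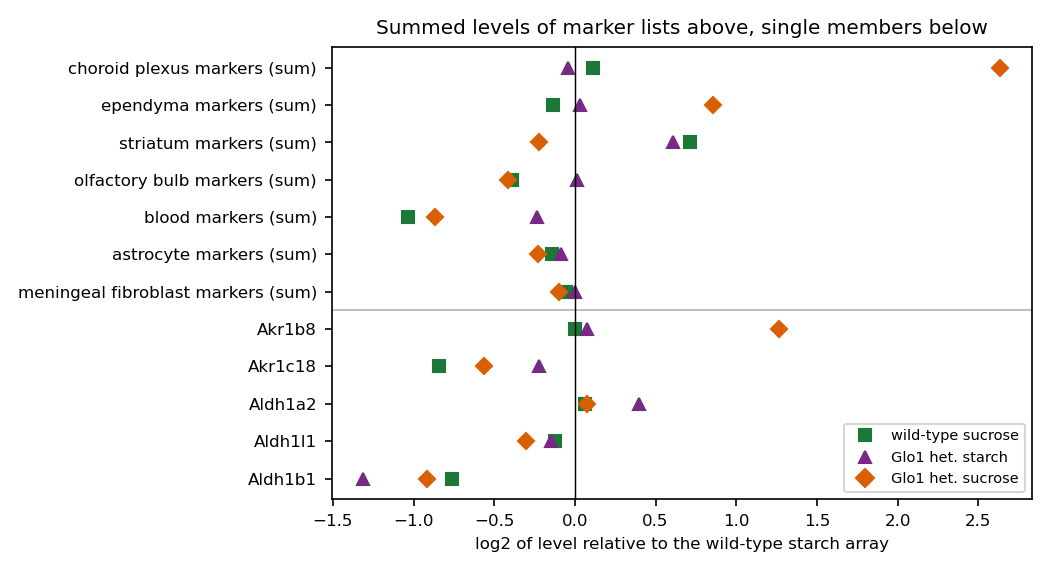
Log2 of the summed level of 7 marker lists (above the line) and of the level of 5 members (below it) on 3 arrays relative to wild-type starch. Bright probes weigh most in a sum. Tbr1 gives 18.5 of the olfactory bulb sum of 22.1 on wild-type sucrose, and Ptgds 92.5 of the meningeal sum of 108 on wild-type starch. Changes of olfactory bulb markers with sucrose had medians of -2.13 in wild-type mice and -0.77 in heterozygotes. Choroid plexus and ependymal markers and Akr1b8 are highest on heterozygous sucrose, and blood markers and Akr1c18 are lowest on wild-type sucrose.

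Over 80 measured genes of 8 lists, covering carbonyl reductases, glyoxalases, amine oxidases, glutathione conjugation, retinoids, GABA and proline, folate and the Nrf2 system, none passed 2-fold in the comparisons of diet or of genotype alone. Of all genes, only 0.813% to 1.77% passed 2-fold in those comparisons. When both diet and genotype differed, 1 gene passed 2-fold, as did 2.0% of all genes. It was the alcohol dehydrogenase Adh1, a dim gene with levels of 0.0264, 0.0467, 0.0336 and 0.0652. Both sucrose arrays lay above both starch arrays for Adh1, with diet changes of 0.82 and 0.96. Median diet changes in the 2 genotypes were 0.37 and 3.90 for choroid plexus, -1.35 and -0.75 for blood and -2.13 and -0.77 for olfactory bulb markers. Their part in the Adh1 values was not tested. Ptgr1, a reductase of lipid-derived enals and enones, had a diet change of 0.89 in heterozygotes and 0.17 in wild-type mice. Its high array, heterozygous sucrose, was that of the choroid plexus markers, with a median diet change of 3.90 in heterozygotes, and their part in the Ptgr1 value was not tested. None of the 11 genes of the Nrf2 system, which induces several aldo-keto reductases, passed 1.5-fold in any comparison, and their medians lay between -0.13 and -0.01. Of all genes, 3.97% to 7.32% passed 1.5-fold, depending on the comparison. Of 10 glyoxalase and glycation repair genes, 8 were above 0 with sucrose in either genotype, beside 49.9% and 50.1% of all genes, with medians of 0.13 and 0.11. In heterozygotes against wild-type on sucrose, 1 was above 0, beside 45.1% of all genes, with a median of -0.20. That list holds Glo1 itself, at -0.86 in the last comparison. The 7 amine oxidases and the 8 glutathione conjugation genes had medians between -0.09 and 0.12.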

How the data were processed

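RNA of mouse prefrontal cortex was measured on 4 one-colour Agilent arrays, 1 per group, and groups were taken from the sample labels. Per the file headers and the submitters' processing notes, the authors deposited intensity values from Agilent Feature Extraction 11.5.1.1, background-subtracted and detrended within each array. They also deposited a ratio per spot, which on comparison equalled the processed signal divided by the array's 75th percentile within 0.1% for all 62976 spots and had column medians of 0.07549 to 0.0777. Each group had 1 array, so no test was made and differences are given as values.

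Control spots and outlier spots were left out (limma 3.58.1 in R 4.3.3, pandas 2.3.3). The log2 of the deposited signal minus that of the array's 75th percentile was taken. A gene is its brightest probe that was well above background on all 4 arrays. Where a probe was so on 1 side of a pair only, "at least" gives the fold over the higher of the dim signal and the lowest signal well above background on that array. The number of arrays limits the precision. Values on 4 arrays were printed for members past 1.5-fold in any comparison and for 15 members whatever their values, and the other members were summarised, with levels added for some of them after they were seen. Members, roles, marker lists and motifs were chosen with earlier results of these data known. Promoters came from RefSeq, build GRCm38.p6, for 28 of 36 members. Probe positions are those of the files, build mm9, and exon or UTR annotation on that build was not used here. Alternatives were median scaling, quantile and cyclic loess normalization, normexp background correction, the deposited ratios, outlier spots kept, no filter on dim probes, the mean over probes, a 1.5-fold threshold and, added after seeing the data, genes brighter than the median.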

Additional observations from a re-analysis of the deposited data

Results flagged for a closer look

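The diet change of Aldh1b1 had opposite signs in the 2 genotypes. It was -0.76 in wild-type mice and 0.38 in heterozygotes, a difference of 1.14 on the log2 scale. After normexp background correction the changes were -0.67 and 0.30, which differ by less than 1. With 1 array per group, the difference was not tested.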

How the results depend on the processing

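The limits are 1 array per group, single probes for Akr1b8 and Aldh1b1, and dim signal for Akr1c12 and Akr1d1. Medians of all genes lay within 0.06 of 0 under each alternative. At 1.5-fold the members past the threshold were 2 for sucrose in wild-type mice, 2 for sucrose in heterozygotes, 2 for genotype on starch and 2 for heterozygous sucrose against wild-type starch. With no filter on dim probes the members past 2-fold were 3 for sucrose in heterozygotes, 2 for genotype on sucrose and 3 for heterozygous sucrose against wild-type starch, beside 4.2%, 4.12% and 4.76% of all genes. The added members were Akr1d1 and Akr1c20, which met the signal criterion through the arrays where they are high. Akr1c20 was not well above background on either heterozygous array, so its diet change there is no measured difference. Among genes brighter than the median, which leaves out Aldh1b1, they were 0 for genotype on starch and 1 for the difference of diet changes, and normexp gave 1 for the latter, without Aldh1b1. The mean over probes gave a median of -0.05 for members between heterozygous sucrose and wild-type starch. Over all genes, counts past 2-fold for sucrose in wild-type mice were 305, with 915 without the filter, 105 after normexp and 36 among the brighter genes. Those for genotype on starch were 168, with 835, 48 and 13. Those for sucrose in heterozygotes were 365, with 949, 150 and 29, those for genotype on sucrose 354, with 932, 158 and 34, and those for heterozygous sucrose against wild-type starch 413, with 1075, 147 and 48. The difference of diet changes passed 1 on the log2 scale for 594 genes, with 1523, 228 and 43. Of 825 values of single members under the alternatives, 811 moved little, 14 moved further and 0 reversed after a 1.5-fold difference. No paired analysis was possible because the labels give no replicate numbers shared between groups.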
